A study of Mus musculus with 4 samples.

Results

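The 10 genes described here encode transcription factors that set and hold the identity of pancreatic beta cells: Pdx1, Mafa, Nkx6-1, Nkx2-2, Neurod1, Isl1, Pax6, Foxa2, Rfx6 and Glis3. They were chosen by name, out of 21938 protein-coding genes. DNA methylation at them was read from peaks of methylated DNA immunoprecipitation sequencing (MeDIP-seq), in which an antibody against methylated cytosine pulls down DNA fragments that are then sequenced. Peaks of the 4 libraries that shared at least 1 bp were joined into 186169 regions, and a region belonged to a gene when it overlapped the gene body or the 10 kb on either side. By this rule 60 regions belonged to 9 of the 10 genes, 46 of them to Glis3 alone and 14 to the other 8 genes. Pdx1 had no region.

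The libraries were made from islets of 8-week-old mice, and each genotype had 2. The labels give the strain as C57BL/6, while the study's methods describe the RIP-Cre parent line as a mixture of C57BL/6J and 129/SvJ. Both genotypes carried Raptor lox/lox, the floxed gene for the defining subunit of mTORC1, a kinase complex that couples nutrients to growth. WT islets came from littermates without Cre, and βRapKO islets from Raptor lox/lox; RipCre mice, in which a rat insulin promoter drives Cre, so that Raptor is removed in beta cells. Islets were handpicked and also hold alpha, delta, endothelial and other cells, so a signal from a mixture of cell types cannot be told apart from a signal from beta cells, and the files hold no expression values with which to check the tissue. Nothing in the labels says whether a library came from 1 animal or from several, and p-values measure the spread between these libraries. The libraries held 25585533 to 31330751 tags after duplicates were removed, which left 49.0% to 50.2% of the mapped tags. WT 2 was the deepest and had 151093 peaks, against 117638 to 121186 in each of the others. The median peak was 1059 bp long in WT 1 and 938 bp in WT 2, and 1102 bp in βRapKO 1 and 1150 bp in βRapKO 2. Peaks were thus longer in βRapKO over the whole libraries, and not only at the genes described here.

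Methylation of cytosine in CpG pairs is copied at each cell division and is mostly found in the bodies of genes and between genes. Start sites rich in CpG are usually kept free of it, also in tissues where the gene is silent. The developmental genes of the pancreas often lie in wide stretches of this unmethylated kind. Pdx1 and Foxa2 act early in the pancreatic lineage and later in the mature beta cell, whereas Mafa marks the mature state.

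Stretches around the mean peak summits are shown for the 3 genes with the strongest regions, because MeDIP reports fragments and not single cytosines. The libraries' summits spread over 429 bp at Nkx6-1 and 366 bp at Foxa2. In both genes the βRapKO 2 summit lay outside the stretch shown, and at Foxa2 the WT 2 summit fell just outside its edge. At Glis3 the spread was 15 bp, with the larger of the WT 2 peaks used. Each stretch is 300 bases centred on the mean summit of the libraries' peaks, on the strand of the gene, from GRCm38, with CpG pairs in capitals. The Nkx6-1 stretch (chr5:101668270-101668569) held 9 CpG pairs, the Foxa2 stretch downstream of the gene (chr2:148038461-148038760) held 20, and the Glis3 stretch in intron 4 (chr19:28528314-28528613) held 15.
Nkx6-1 upstream: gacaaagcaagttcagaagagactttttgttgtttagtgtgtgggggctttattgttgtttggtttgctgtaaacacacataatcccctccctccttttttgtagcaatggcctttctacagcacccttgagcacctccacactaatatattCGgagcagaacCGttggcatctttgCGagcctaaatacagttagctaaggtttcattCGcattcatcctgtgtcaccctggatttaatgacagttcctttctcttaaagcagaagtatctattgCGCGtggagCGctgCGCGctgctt
Foxa2 downstream: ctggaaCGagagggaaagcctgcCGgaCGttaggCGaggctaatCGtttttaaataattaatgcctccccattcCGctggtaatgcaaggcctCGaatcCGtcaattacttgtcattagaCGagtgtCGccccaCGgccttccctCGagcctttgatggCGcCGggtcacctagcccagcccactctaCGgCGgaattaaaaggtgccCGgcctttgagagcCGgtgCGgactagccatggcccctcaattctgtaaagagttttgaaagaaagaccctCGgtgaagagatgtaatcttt
Glis3 intron 4: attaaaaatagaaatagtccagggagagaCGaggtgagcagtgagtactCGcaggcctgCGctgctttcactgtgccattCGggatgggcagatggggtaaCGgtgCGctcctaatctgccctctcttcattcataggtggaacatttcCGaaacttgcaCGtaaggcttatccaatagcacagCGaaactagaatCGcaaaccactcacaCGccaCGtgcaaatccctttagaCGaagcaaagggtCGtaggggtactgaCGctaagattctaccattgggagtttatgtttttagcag

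Set against these are stretches beside start sites. The first, at Foxa2 (chr2:148047630-148047929, 7 CpG pairs), is centred on the summit of the peak closest to any of the 10 start sites, and that peak was found in WT 2 alone. The other 2 are the 250 bases before the RefSeq start sites of Isl1 (chr13:116309689-116309938, 33 CpG pairs) and Glis3 (chr19:28680078-28680327, 24 CpG pairs), where no library had a peak. They show how dense in CpG a stretch without any peak could be. The 250 bases before the RefSeq start sites of these genes held from 2 CpG pairs (Rfx6) to 33 (Isl1). A promoter of 300 bases held a median of 7 CpG pairs over 32851 RefSeq promoters, against 37 for Isl1, 32 for Glis3 and 12 for the outermost Foxa2 promoter. A RefSeq promoter was matched for 9 of the 10 genes, and none for Mafa.
Foxa2 upstream, WT 2 alone: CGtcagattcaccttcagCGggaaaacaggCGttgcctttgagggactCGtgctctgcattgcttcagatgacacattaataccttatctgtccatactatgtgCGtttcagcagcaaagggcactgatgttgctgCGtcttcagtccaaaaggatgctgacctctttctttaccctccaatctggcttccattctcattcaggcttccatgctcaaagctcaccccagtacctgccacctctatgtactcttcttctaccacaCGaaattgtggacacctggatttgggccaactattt
Isl1 promoter: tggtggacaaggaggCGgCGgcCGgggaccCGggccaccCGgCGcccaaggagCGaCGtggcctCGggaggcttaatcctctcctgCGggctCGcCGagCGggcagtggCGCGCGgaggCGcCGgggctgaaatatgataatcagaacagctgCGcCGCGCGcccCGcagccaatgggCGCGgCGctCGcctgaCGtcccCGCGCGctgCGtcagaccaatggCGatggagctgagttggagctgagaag
Glis3 promoter: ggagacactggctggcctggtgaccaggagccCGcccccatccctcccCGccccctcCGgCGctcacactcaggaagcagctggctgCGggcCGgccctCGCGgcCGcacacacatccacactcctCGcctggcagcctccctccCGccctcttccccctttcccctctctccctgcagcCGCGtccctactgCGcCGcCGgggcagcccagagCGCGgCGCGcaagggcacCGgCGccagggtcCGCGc

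No region covered the start site of any of the 10 genes, and only the WT 2 peak at Foxa2 came within 500 bp of one. Among all protein-coding genes, 12.6% had a region within 500 bp of the start site. Of the 10 genes, 1 (10%) had one, of 30 other islet transcription factor genes 3 (10%), and of 20 developmental transcription factor genes of other tissues 5 (25.0%). The 10 start sites held a median of 6.09 CpG per 100 bp within 500 bp, against 4.30 for all protein-coding genes, and among the 9602 genes with at least 5 CpG per 100 bp the share with a region that close was 6.10%. Of the markers of cells in an islet preparation, 0 of 5 beta cell, 0 of 3 alpha cell and 0 of 2 delta cell genes had such a region, and 1 of 4 acinar, 1 of 2 ductal, 1 of 3 endothelial and 1 of 2 immune genes did.

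Most of the peaks lay outside the gene bodies except in Glis3. No region touched the gene body in 7 of the 10 genes (70.0%), the exceptions being Nkx2-2, Rfx6 and Glis3, whereas the share was 25.0% over all protein-coding genes, 33.3% over the other islet factors and 35.0% over the factors of other tissues. Most of the 10 are short genes, with a median length of 9133.5 bp. The median was 17425 bp over all protein-coding genes, 17014 bp over the other islet factors and 10013 bp over the factors of other tissues. Among genes under 60 kb the shares were 77.8% (7 of 9), 30.6%, 47.6% and 43.8% in the same order, and 18.0% among genes under 60 kb with at least 5 CpG per 100 bp at the start site. The length and CpG limits were chosen after values were seen, and these shares are descriptions without a test. A limit of 60 kb does not match the genes for length, and a shorter gene body has less room for a region. The stretch around the start site without any region had a median of 34170.5 bp in the 10 genes, against 14742.5 bp over all protein-coding genes, 20411 bp over the other islet factors and 27770.5 bp over the factors of other tissues.

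**Figure D1:**
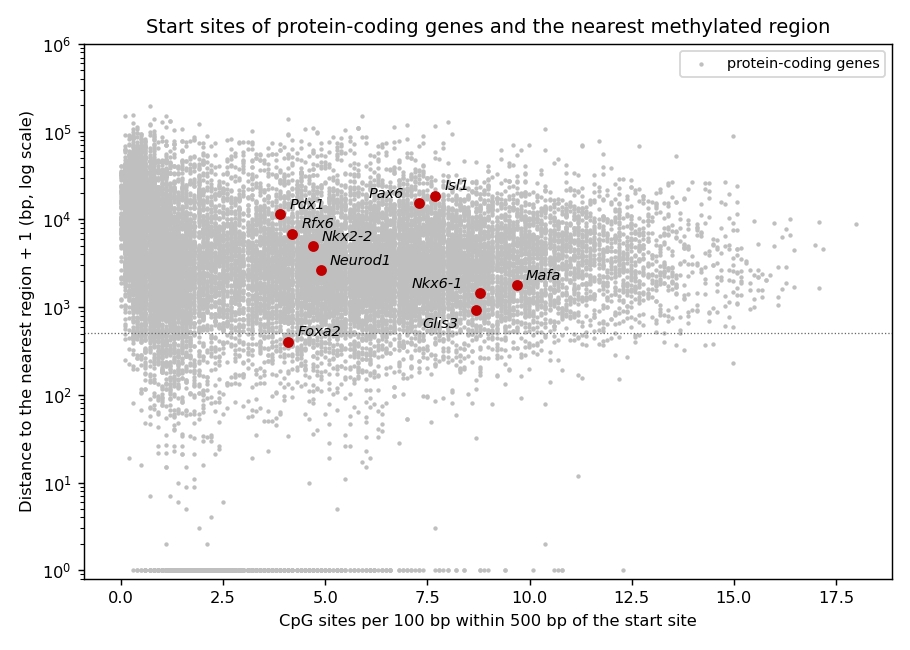
Each grey point is a protein-coding gene, placed by CpG pairs per 100 bp within 500 bp of its start site (horizontal) and by the distance from the start site to the nearest region in bp plus 1 (vertical, log scale). The 10 transcription factor genes are in red, and only Foxa2, at 404 bp, lies under the dotted line at 500 bp.

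Pdx1 (chr5:147269959-147275848), an activator of the insulin gene and of pancreas formation, was the gene with no region in any library. A gene without any region was no rarity, since 9.5% of all protein-coding genes had none. The nearest region lay 11446 bp upstream of the start site and the nearest on the other side 16462 bp downstream, a free span of 27907 bp that was longer than that of 71.4% of protein-coding genes. Its start site was not rich in CpG, with 3.90 per 100 bp. Because the files list peaks and not coverage, a stretch without a peak has no tag count and weak methylation there would not be seen.

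The longest free span around a start site was that of Neurod1 (chr2:79452521-79456751), a basic helix-loop-helix activator of insulin and secretory genes, with 73395 bp, at percentile 91.5 of all protein-coding genes. Rfx6 followed with 54151 bp, Nkx2-2 with 52565 bp, Pax6 with 41633 bp and Isl1 with 40434 bp, at percentiles 80.6 to 86.4. Nkx6-1 had 23426 bp and Mafa 15322 bp. Foxa2, with 7465 bp, and Glis3, with 5710 bp, had shorter spans than the median gene.

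**Figure D2:**
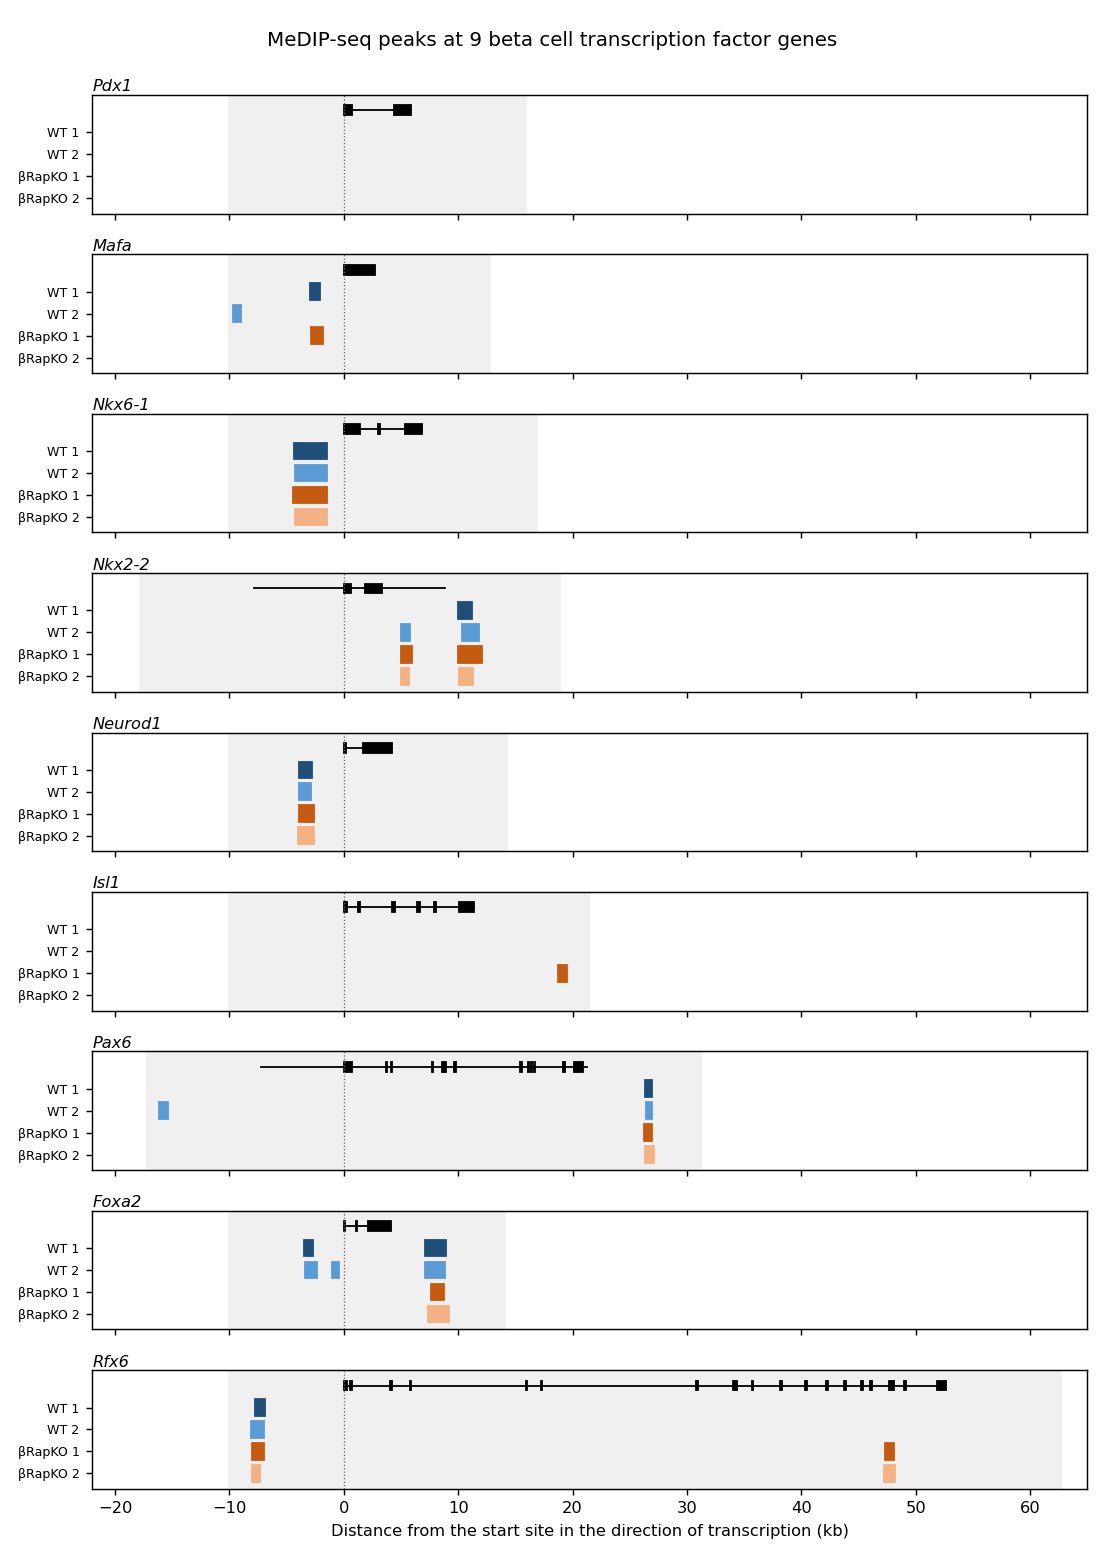
Peaks of each library (coloured bars, 1 lane per library) along 9 genes, with exons as black boxes, the gene body and 10 kb on either side in grey, and distance from the start site in kb on the horizontal axis. Nkx6-1 and Neurod1 have their only region upstream in all 4 libraries, Pdx1 has none, and Isl1 has a single peak in βRapKO 1.

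The 14 regions outside Glis3 stood mostly beside the genes. Relative to the principal transcript 8 were upstream, 5 downstream and 1, at Rfx6, inside. Other annotated genes were overlapped by 8 of the 60 regions, so that a signal there cannot be assigned to the transcription factor alone. A median of 1.59 CpG per 100 bp in the 60 regions was near the 1.60 of all regions, and the median share of repeat sequence was 11.5% against 24.4%. Glis3 held 46 of the 60, and the repeat median was 10.6% in Glis3 and 17.8% in the 14 regions of the other genes. It was 18.6% at the other islet factors and 16.5% at the factors of other tissues.

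The comparison of the genotypes asks whether methylation at these genes differs when beta cells lack Raptor. A peak in all 4 libraries was found at 22 of the 60 regions (36.7%), against 40.3% of all regions. Those 22 could be compared by tag count: 16 lay in Glis3, and Nkx6-1, Nkx2-2, Neurod1, Pax6, Foxa2 and Rfx6 had 1 each. Mafa, Isl1 and Pdx1 had none. Tags are given per 1000000 tags of the library (CPM), and the test was edgeR's quasi-likelihood test over 75052 regions with a peak in every library. The tags of a region in a library are those of that library's own peaks there. They were thus not counted over the same bases in each library, and the length covered differed.

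None of the 22 regions passed a Benjamini-Hochberg adjusted p of 0.05 with a fold-change above 1.5, in either direction, and neither did any of the 75052 (0.0% lower and 0.0% higher). The lowest adjusted p was 0.549 among the 22 and 0.173 among all. At an unadjusted p under 0.05 edgeR gave 1 of the 22 regions as lower in βRapKO and 0 as higher, with 3.93% and 1.88% over all tested regions, and DESeq2 gave 0 and 0. Of the 22, 10 had a lower and 12 a higher estimate in βRapKO, with a median log2 fold-change of 0.012, whereas 60.8% of all regions were lower and the median was -0.06. This balance depended on how tags were counted. Per kb of peak, 19 of the 22 were lower with a median of -0.14, beside 79.8% and -0.17 for all regions. Scaled to the sum of tags in peaks, the median was 0.175 for the 22 and 0.10 for all regions, of which 31.4% were lower. Peaks held 32.0% and 35.4% of the tags in WT 1 and WT 2, and 29.2% and 31.0% in βRapKO 1 and βRapKO 2.

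**Figure D3:**
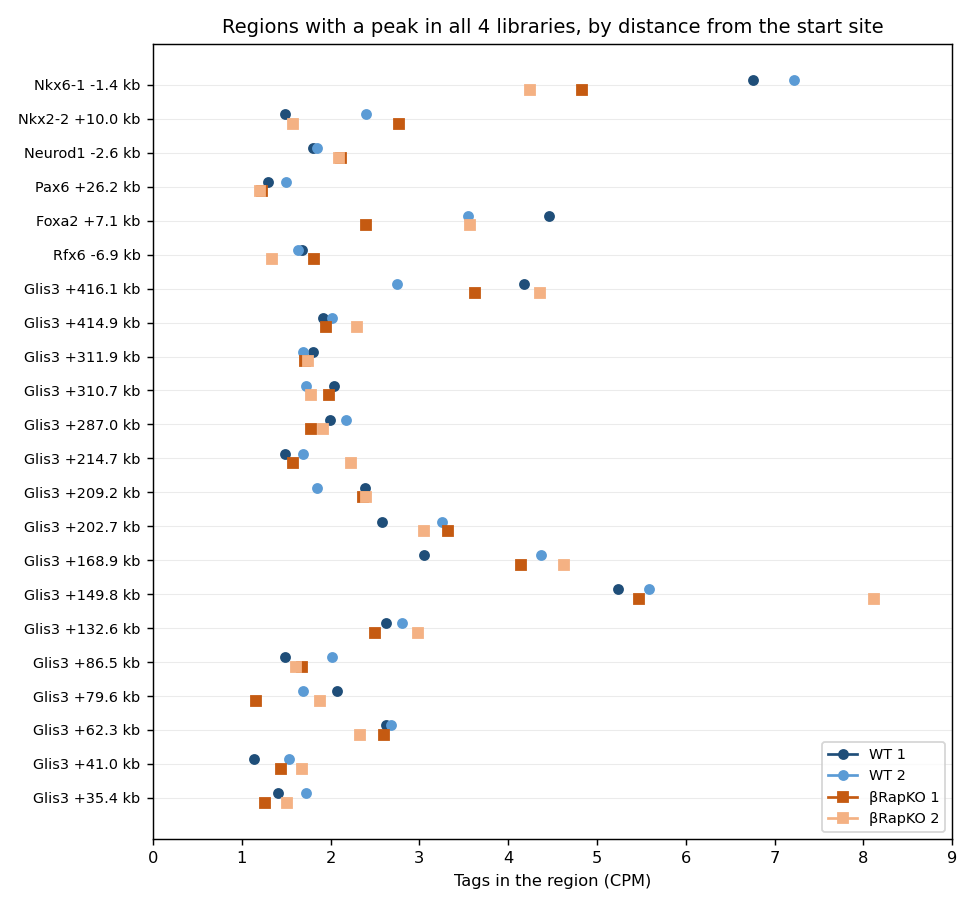
Tags in CPM (horizontal) in each of the 4 libraries for the 22 regions with a peak in all of them (rows, named by gene and distance of the region from the start site). The WT circles and βRapKO squares of Nkx6-1 are apart (6.76 and 7.21 against 4.83 and 4.25), and in most other rows they interleave.

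Nkx6-1, a homeodomain factor that keeps beta cells from taking an alpha cell programme, had the region that differed most among the 22. Its 2996 bp (chr5:101666434-101669429) began 1438 bp upstream of the start site, in no other gene, and held 85 CpG pairs, 2.84 per 100 bp. The stretch around its mean summit is the first sequence printed above. The values were 6.76 CPM in WT 1, 7.21 in WT 2, 4.83 in βRapKO 1 and 4.25 in βRapKO 2, from 173, 226, 141 and 124 tags. Both βRapKO libraries lay below both WT libraries, as they did in 4 of the 22 regions and in 25.3% of all tested regions. The mean was 6.99 ± 0.319 in WT and 4.54 ± 0.407 in βRapKO (SD, n = 2). By edgeR's quasi-likelihood test the log2 fold-change was -0.62 with a standard error of 0.15, an unadjusted p of 0.0034 and an adjusted p of 0.549. Only 0.626% of the tested regions had a p as low, and none of the differences passed the adjusted threshold. A fold-change above 1.5 towards lower values was found in 1 of the 22 regions, this one, and in 1.77% of all tested regions. None of the 22 exceeded that fold-change upwards, against 1.29% of all. The peaks were similarly long in all libraries, 2748 to 2927 bp, and per kb of peak the log2 fold-change was -0.68. The authors' fold enrichment over the local background was 6.46 and 6.84 in WT and 5.59 and 5.25 in βRapKO.

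Foxa2, a forkhead factor that opens chromatin for other factors, had 3 regions. The strongest (chr2:148037805-148039907) lay downstream, inside the long non-coding gene 9030622O22Rik, with 3.95 CpG per 100 bp. It had 4.46 CPM in WT 1, 3.54 in WT 2, 2.40 in βRapKO 1 and 3.56 in βRapKO 2. WT 2 and βRapKO 2 had nearly the same value, so the genotypes overlapped, and the log2 fold-change of -0.42 had a standard error of 0.23 and an adjusted p of 0.861 by edgeR. In βRapKO 1 the peak was 1165 bp long, against 1768 to 1833 bp in the others, and per kb of peak the log2 fold-change was -0.13. The 2 regions upstream were found in WT only: one 404 bp from the start site with 37 tags in WT 2, and one further upstream (chr2:148049312-148050404) with 33 tags in WT 1 and 38 in WT 2, which held 9 CpG pairs and was 55.7% repeat.
Summed over its regions Foxa2 had 5.75 and 5.94 CPM in WT against 2.40 and 3.56 in βRapKO. A region without a peak in a library added nothing to that library's sum. The exact permutation test gave p = 0.333, which is the smallest that 2 libraries against 2 can give. The length covered by peaks moved with the sum, 2611 and 3456 bp against 1165 and 1791 bp, and per kb of peak the log2 ratio of the means was 0.05 in the other direction.

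Neurod1 had its only region 2634 bp upstream (chr2:79459385-79460723), inside the long non-coding gene Gm26755. The values were 1.80 and 1.85 CPM in WT and 2.12 and 2.09 in βRapKO. It was the 1 region of the 22 with both βRapKO libraries above both WT libraries, which held for 11.6% of all tested regions. The log2 fold-change was 0.21 with a standard error of 0.19 and an adjusted p of 0.894 by edgeR. The βRapKO peaks were longer, 1313 and 1339 bp against 1097 and 1055 bp, and per kb of peak the estimate turned to -0.10. The median peak of the whole library was also longer in βRapKO, 1102 and 1150 bp against 1059 and 938 bp.

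Pax6, a paired-domain factor that binds hormone gene promoters in islet endocrine cells, had a region in all libraries 26227 bp past its principal start site (chr2:105702355-105703273), within the neighbouring gene Elp4. It had 1.29 and 1.5 CPM in WT and 1.23 and 1.20 in βRapKO, the lowest mean of the 22. Both βRapKO values were below both WT values by a small margin, with a log2 fold-change of -0.21 and an adjusted p of 0.908 by edgeR. Peak lengths were 554 and 553 bp in WT and 728 and 794 bp in βRapKO, and per kb of peak the log2 fold-change was -0.66 with an adjusted p of 0.268, the lowest over its 12 alternatives, whose highest was 1.0. A second region upstream, over the non-coding genes Paupar and Pax6os1, was a peak of WT 2 alone with 31 tags.

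Nkx2-2, a homeodomain factor that represses the hormone genes of other islet cells, had a region 10018 bp past its start site (chr2:147174309-147176386) with 1.49 CPM in WT 1, 2.39 in WT 2, 2.77 in βRapKO 1 and 1.58 in βRapKO 2. The libraries of each genotype differed more from each other than the genotypes did. The log2 fold-change was 0.15 with a standard error of 0.33, and it turned to -0.14 without WT 1 and to -0.32 without βRapKO 1. A second region 4982 bp past the start site had 37 tags in WT 2, 37 in βRapKO 1 and 30 in βRapKO 2, and no peak in WT 1, the library with the fewest tags.

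Rfx6, a winged-helix factor for the secretory and calcium channel genes of beta cells, had a region 6896 bp upstream (chr10:51669634-51670860), in the non-coding gene 1700042O05Rik. It had 1.68 and 1.63 CPM in WT and 1.81 and 1.34 in βRapKO, with a log2 fold-change of -0.07 and an adjusted p of 0.971 by edgeR. Leaving out βRapKO 2 turned the estimate to 0.13. The other region of Rfx6 (chr10:51725012-51725905) crossed exon 17 and its introns, 47256 bp past the start site. It was the only 1 of the 60 found in βRapKO 1 and βRapKO 2 but in no WT library. The peaks were weak, with 30 and 37 tags and scores of 50.46 and 70.96, the score being 10 times the negative log10 of the authors' p-value, for which 50 was the minimum.

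Mafa, the basic leucine zipper activator of insulin in mature beta cells, had a region 1784 bp upstream (chr15:75750012-75751200) with 34 tags in WT 1 and 36 in βRapKO 1, and one further upstream in the gene Zc3h3 with 32 tags in WT 2. Isl1, a LIM-homeodomain factor of all islet endocrine cells, had a peak of 34 tags in βRapKO 1 alone, 18688 bp past its start site (chr13:116290222-116291001). No peak of either gene was shared by the libraries of 1 genotype.

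Glis3, a zinc finger factor for insulin transcription whose loss causes neonatal diabetes, spans 421227 bp (chr19:28258851-28680077) and held 46 regions, 10.4 per 100 kb, against a median of 10 over all protein-coding genes and 4.13 over the 10. Of these, 40 lay in introns alone, 17 in intron 2 and 17 in intron 4, while 5 touched an exon and 1 was upstream. Its density per 100 kb was at percentile 52.1 of all protein-coding genes. The region upstream began 918 bp before the start site (chr19:28680995-28683484), in the non-coding gene D930032P07Rik, and had peaks in WT 2 (100 tags) and βRapKO 1 (75 tags) only.

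**Figure D4:**
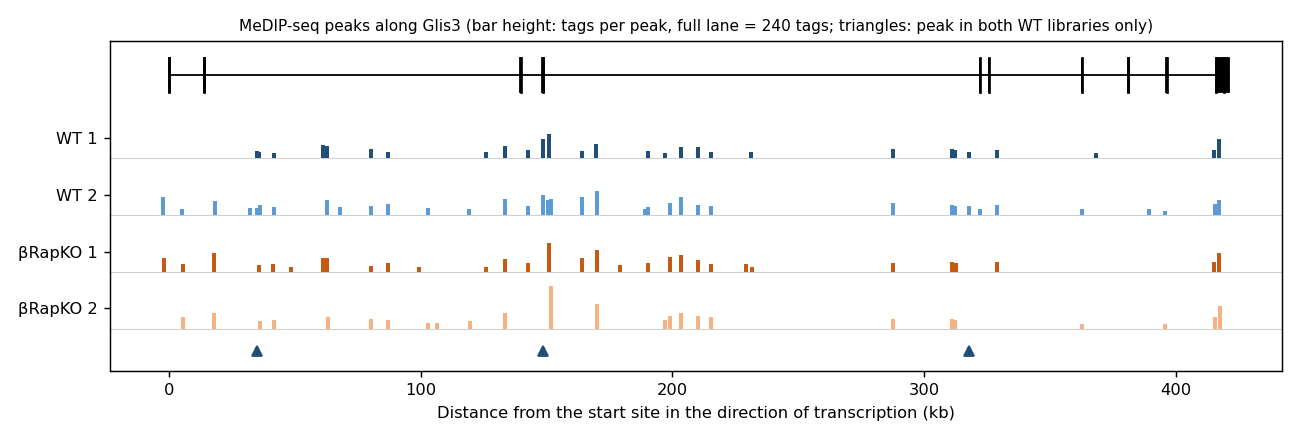
Peaks along Glis3 in the 4 libraries, with exons in black, distance from the start site in kb on the horizontal axis and bar height for tags per peak, not scaled for depth. The triangles mark the 3 regions found in WT 1 and WT 2 alone, and the tallest bar, in βRapKO 2, is next to the middle one.

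The 16 Glis3 regions found in all libraries split into 6 lower and 10 higher in βRapKO, with a median log2 fold-change of 0.06 and a range of -0.29 to 0.33. The 6 regions of the other genes split into 4 lower and 2 higher, with a median of -0.14. The 16 had 2.0 CPM at the median and 1.45 to 6.11 CPM in all. None of the 16 passed an unadjusted p of 0.05 in edgeR. The genotypes did not overlap in 2 of the 16, both with βRapKO lower, beside 25.3% lower and 11.6% higher without overlap over all tested regions. Per kb of peak, 14 of the 16 were lower, beside 79.8% of all.

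The strongest of them, in intron 4 (chr19:28526328-28530287), had 5.24 CPM in WT 1, 5.59 in WT 2, 5.48 in βRapKO 1 and 8.12 in βRapKO 2. Only βRapKO 2 stood out, and without it the log2 fold-change was 0.016. Its log2 fold-change of 0.33 had a standard error of 0.20 and an adjusted p of 0.864 by edgeR, and per kb of peak it was -0.10. The βRapKO 2 peak was 3890 bp long, against 2395 bp in WT 1, 2387 bp in βRapKO 1 and 2251 bp in WT 2, where it was split into 2 peaks.
A region 186 bp away (chr19:28530474-28532303), over exon 4, had peaks of 110 and 114 tags in WT 1 and WT 2 and none in βRapKO. Summed, the 2 regions had 9.54 and 9.22 CPM in WT and 5.48 and 8.12 in βRapKO, a sum chosen after the values were seen. How the peak caller split the signal here was not tested.

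Of the 60 regions, 4 were found in WT 1 and WT 2 but in no βRapKO library, against 4.16% of all regions, and 1 was found the other way round, against 1.58%. These counts moved with the libraries used: the first rose to 12 without WT 1 and to 8 without βRapKO 1, and the second to 5 without WT 2, to 2 without βRapKO 1 and to 6 without βRapKO 2. Leaving out a library loosens such a count at every region, and the shares over all regions are not given here. Without WT 1 the count took in regions of WT 2 alone, which were 8 of the 60 and 23929 of all 186169. The 4 were the upstream repeat-rich region of Foxa2 and 3 in Glis3. Beside the exon 4 region these were one in intron 4 (chr19:28361543-28362581, 34 and 49 tags) and one in intron 2 (chr19:28644862-28645516, 42 and 40 tags), the latter 156 bp from a region found in all libraries. Single-library regions made up 15 of the 60 (25.0%, against 27.5% of all), and 8 of these were WT 2 alone, beside 23929 of 51195 over all regions. A peak was present at 36 of the 60 regions in WT 1, 47 in WT 2, 41 in βRapKO 1 and 33 in βRapKO 2, with WT 2, the library with the most peaks in all, at the top. Of all 186169 regions, the same libraries in the same order had a peak at 119057, 146926, 115917 and 118313. Peaks of regions found in all 4 libraries had a median score of 121, and those of regions found in a single library 65.3.

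Summed per gene, Glis3 had 60.1 and 73.7 CPM in WT and 66.1 and 59.1 in βRapKO, with an exact permutation p of 0.667. The other genes summed had 20.1 and 23.7 CPM in WT against 19.8 and 16.3 in βRapKO, with an exact permutation p of 0.333. Rfx6 had 1.68 and 1.63 against 2.84 and 2.60 CPM, Pax6 1.29 and 2.49 against 1.23 and 1.20, and Nkx2-2 1.49 and 3.57 against 4.04 and 2.60. Of the 9 genes with a region, the Nkx6-1, Pax6 and Foxa2 sums did not overlap, with βRapKO lower, and the Rfx6 and Neurod1 sums did not overlap, with βRapKO higher. Over 19854 protein-coding genes with a region the shares were 33.9% lower and 5.86% higher. Other settings did not keep all of these separations. The Pax6 sums overlapped when scaled to tags in peaks (4.03 and 7.03 in WT against 4.22 and 3.87 in βRapKO). The Foxa2 and Rfx6 sums overlapped with a peak score of at least 100 and per kb of peak. Per kb of peak the Neurod1 values were lower in βRapKO without overlap. The Nkx6-1 values stayed lower without overlap in each of these settings. In all these sums a region without a peak in a library added nothing, although tags there were not counted. At Foxa2 and Rfx6 the region found in all libraries did overlap between the genotypes. That of Rfx6 had 1.68 and 1.63 CPM in WT against 1.81 and 1.34 in βRapKO. No exact permutation p of 2 against 2 libraries falls below 0.333. The length of DNA in peaks of Rfx6 was 880 and 1144 bp in WT and 1899 and 1594 bp in βRapKO, and per kb of peak its log2 ratio turned to -0.09.

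**Figure D5:**
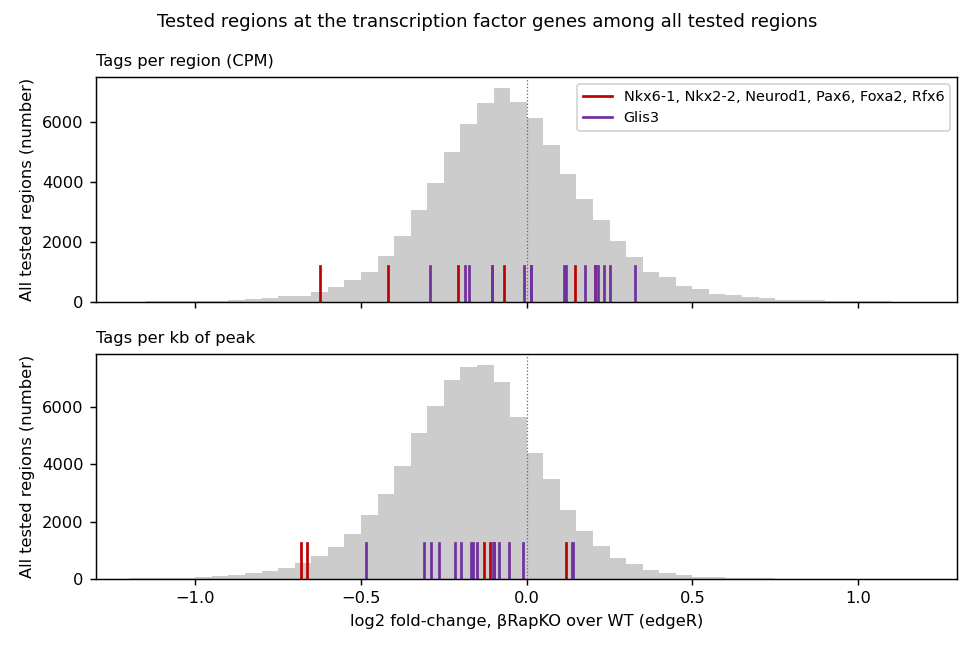
Log2 fold-change of βRapKO over WT from edgeR (horizontal) for all 75052 tested regions (grey, number of regions on the vertical axis), from tags per region above and tags per kb of peak below. Coloured lines mark the 22 regions at the transcription factor genes, whose median moved from 0.012 above to -0.14 below, as the bulk of all regions moved from -0.06 to -0.17.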

How the data were processed

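MeDIP-seq was measured in 2 WT and 2 βRapKO islet libraries. Per the labels the authors aligned reads with Bowtie2 2.2.5 and called peaks with MACS, version 1.4.2 in the file headers (0.14.2 in the submitters' processing notes), in each library alone, without a control, at p = 1e-05, keeping 1 tag per position. The deposited peak lists hold counts of tags per peak, a score of 10 times −log10 of the p-value, and a fold enrichment over the local background (a linear ratio). The labels name mm9 and mm10. No peak ran past a chromosome end of mm10 (GRCm38), and regions held a median of 1.60 CpG per 100 bp, against 0.863 in stretches 5 kb to the left, so mm10 was used.

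Peaks were merged at an overlap of 1 bp and placed with GENCODE M21. Those found in every library were compared by edgeR 4.0.16 (quasi-likelihood, library size after duplicate removal, Benjamini-Hochberg), and per-gene sums by two-sided exact permutation, where 2 against 2 allows no p below 0.333. Other settings used DESeq2 1.42.0 and limma 3.58.1. For each gene the strongest region found in all libraries, regions past a fold-change of 1.5 or an unadjusted p of 0.05, regions of 1 genotype, and regions within 500 bp of the start site were named. The genes and gene lists were chosen with earlier results of these data known. Scripts were tested on simulated data. Depth was 25585533 to 31330751 tags, and tag counts carry counting error.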

Additional observations from a re-analysis of the deposited data

How the results depend on the processing

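No alternative gave a region at the 10 genes an adjusted p under 0.05. Over all regions DESeq2 called 2 higher and the other settings 0. Scaling shifted the median of all 75052 log2 fold-changes by 0.16 for the sum of tags in peaks and by -0.11 for tags per kb of peak, and the median of the 22 regions to 0.175 and -0.14, to 0.075 with TMM, 0.072 with DESeq2, 0.061 for the gene body alone, -0.073 for the gene body and 50 kb either side, and -0.034 to 0.00875 leaving out one library. The cause was not tested, apart from the regions that the windows add or remove. Nkx6-1 kept its direction in 14 of 14 alternatives (-0.72 to -0.46, adjusted p 0.180 to 1.0), as did Foxa2 in 14 and Pax6 in 12. Per kb of peak the regions of Nkx2-2 (-0.11), Neurod1 (-0.098) and Glis3 (-0.10) turned lower and Rfx6 higher (0.12). Rfx6 also turned when scaled to tags in peaks (0.10) and ranged from -0.30 to 0.13 without one library, and Nkx2-2 from -0.32 to 0.55. The per-gene log2 ratio turned per kb for Nkx2-2 (-0.041), Neurod1 (-0.095), Foxa2 (0.046) and Rfx6 (-0.091), and for Glis3 when scaled to tags in peaks (0.074). Genes without a region numbered 7 for the gene body alone, 4 with 2 kb upstream, 0 with 50 kb and 3 with a score of at least 100. Regions of both βRapKO libraries only numbered 2 with 50 kb, 0 with the stricter score and 4 with equal numbers of top-ranked peaks. Those of both WT libraries only numbered 1 with the stricter score and 2 with top-ranked peaks. Without one library, an alternative chosen after seeing the data, a peak in the remaining library of 1 genotype counted, and the numbers were 1 to 6 for βRapKO and 4 to 12 for WT. The same loosening applies to every region, and its shares over all regions are not given here. Replicate numbers are shared by the genotypes, but nothing pairs the libraries. Across the 75052 regions, the deviations of WT 1 and βRapKO 1 from their genotype means of log2 CPM had a correlation of 0.0474. With the replicate block 0 regions were called lower and 0 higher, as without it, and 3152 lower and 1579 higher had an unadjusted p under 0.05, against 2950 and 1413. Peak lists carry no tag count where no peak was called, so differences there could not be measured.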

Other observations

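Of 30 other islet transcription factor genes, 89 regions had a peak in all 4 libraries, with 52 lower and 37 higher estimates in βRapKO and a median log2 fold-change of -0.05. None passed an adjusted p of 0.05 in edgeR. Of the 89, 6 lower and 3 higher had an unadjusted p under 0.05, beside 3.93% and 1.88% of all tested regions. The estimates ranged from -0.63 to 0.99, and 1 region was lower (1.77% of all tested regions) and 3 were higher (1.29%) by more than 1.5-fold, which are named here after their values were seen. The lower one was a region of Gata6, a zinc finger factor of the early pancreas, with 2.07 and 1.82 CPM in WT and 1.27 and 1.23 in βRapKO (adjusted p 0.780). The highest was a region of Foxo1, a forkhead factor regulated by insulin signalling, with 1.37 and 2.30 against 3.73 and 3.63 CPM (log2 fold-change 0.99, adjusted p 0.608). A region of Esrrg, an oestrogen-related receptor of mature beta cells, had 2.38 and 1.4 against 2.50 and 3.63 CPM (log2 fold-change 0.71, adjusted p 0.858). The third was in Hnf4a. Among regions with at least 50 tags in every library, from which the 2 widest estimates in each direction were taken, a region of Prox1, a homeodomain factor of the endocrine lineage, had 5.24 and 5.78 CPM in WT and 3.42 and 4.08 in βRapKO, with a log2 fold-change of -0.56 and an adjusted p of 0.786. A second region of Gata6 had 6.37 and 5.27 against 3.05 and 4.73 CPM, with -0.58 and an adjusted p of 0.858. A region of Hnf4a, a nuclear receptor, was the other way, with 2.46 and 1.72 against 3.01 and 3.29 CPM, a log2 fold-change of 0.60 and an adjusted p of 0.849. A second region of Esrrg had 2.81 and 2.78 against 4.72 and 2.91 CPM, where only βRapKO 1 stood out, with an adjusted p of 0.861.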
